A study of Homo sapiens with 6 samples.

Results

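The cell cycle cyclins are the regulatory proteins whose levels rise and fall through the division cycle. Their messenger RNAs were followed in HCT116 cells, a human colorectal carcinoma line, with and without shikonin, a naphthoquinone from the root of Lithospermum erythrorhizon. The genes were CCND1, CCND2, CCND3, CCNE1, CCNE2, CCNA2, CCNF, CCNB1, CCNB2 and CCNB3, taken by symbol from the deposited gene table, which makes 10 genes of 35106. Of these, 9 had enough counts to be tested, as did 13548 genes of the whole table, and CCND2 did not. The control group comprised 3 libraries of wild-type HCT116 cells with no treatment, and the shikonin treatment group comprised 3 libraries of the same line treated for 24 h. The sample labels give a concentration of 8 μM, whereas the paper's methods give a lower one for the RNA samples. All libraries came from a single cell line, and the sources do not say that libraries of a group were separate cultures. The p-values therefore describe the spread between these libraries, which may be technical. Whether the untreated cells received the solvent is also not stated. Control and shikonin here mean the libraries so labelled, and every direction follows those labels, which no deleted or silenced gene checks in this design. The sources differ on the direction of CCNB3 and CDKN2A, for which the paper gives the opposite sign to the labelled columns. For CDKN2A the paper also reports a fall by RT-qPCR. Whether the labels or the stated contrast are reversed cannot be told from the files, and if the labels were exchanged every higher and lower in the text would turn.

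Each cyclin serves a stretch of the cycle. D-type cyclins bind CDK4 and CDK6 in G1 and begin the phosphorylation of the retinoblastoma protein, which frees E2F transcription factors. E-type cyclins then activate CDK2 for entry into S phase, cyclin A2 works with CDK2 and CDK1 through S phase and G2, and the B-type cyclins drive mitosis with CDK1. Cyclin F binds no kinase of this kind and is the substrate receptor of an SCF ubiquitin ligase that is most abundant in G2.

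The library totals lay between 18845690 and 21765806 estimated counts. Levels are given in CPM, counts relative to library size (TMM scaled, by a trimmed mean of log ratios). Of 8 epithelial markers, 7 were tested and EPCAM stood at 275 CPM in the control group and 273 CPM in the treatment group. KRT19 was called higher, at 1038 CPM in the control group and 1264 CPM in the treatment group (edgeR adjusted p = 0.0496). The other 6 were not called, among them CDH1 at 299 and 265 CPM (edgeR adjusted p = 0.0937). VIL1 was at 0 in all libraries. Of 10 markers of blood, endothelial and stromal cells, 7 were too low to be tested. PTPRC, CD3E, PECAM1, COL1A2, COL3A1 and DCN were each below 0.2 CPM in every library. LYZ reached 0.288 CPM, CD14 1.69 CPM and VWF 1.82 CPM in their highest library, and COL1A1 stood at 26.5 to 35.1 CPM in the 6 libraries. Mitochondrially encoded genes took 4.27% to 5.16% of the counts in all libraries but shikonin replicate 1, where they took 6.99%.

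Compared with the control group, most of the tested cyclin genes were lower in the shikonin treatment group. CCNE2, CCNF, CCNA2, CCND3 and CCND1 fell, and CCNB3 rose. CCNE1, CCNB1 and CCNB2 were not called by edgeR's quasi-likelihood test, for which the adjusted p had to be under 0.05. Thus 5 of 9 tested cyclins were lower, beside 11.1% of all 13548 tested genes, and 1 of 9 was higher, beside 10.8% of all tested genes. The median log2 fold change of the 9 cyclins was -0.28, and that of all tested genes was -0.02. In 7 of 9 cyclins, every treated library lay on the same side of every control library, and 38.4% of all tested genes showed such a separation in either direction. RNA was taken from whole cultures, so a smaller share of cells in a phase and less message per cell cannot be told apart.

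**Figure D1:**
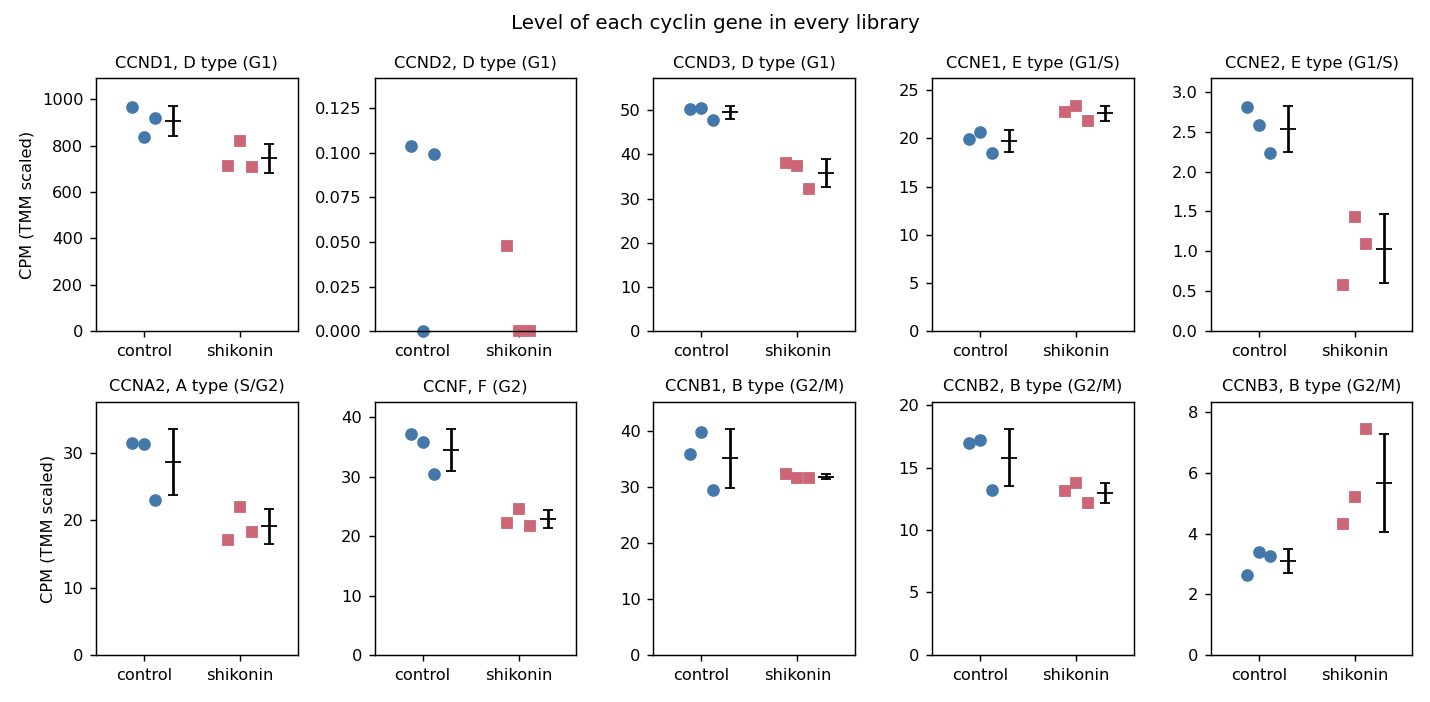
Level of each cyclin gene in the 3 control libraries (circles) and the 3 shikonin libraries (squares), in CPM on a linear axis that starts at 0 in each panel; bars give the mean and SD except for CCND2, which was below the measurable level. CCND1, CCND3, CCNE2, CCNF and CCNA2 were lower in all treated libraries, and CCNB3 and CCNE1 were higher in all of them.

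Among the D-type cyclins, CCND1 and CCND3 fell and CCND2 was hardly detected. CCND1, at chr11:69641156-69654474 (GRCh38), stood at 965.9, 835 and 917 CPM without treatment and at 711, 818 and 708 CPM with shikonin. Shikonin replicate 2 came close to control replicate 2, and the groups did not overlap. The mean went from 906 ± 66.1 to 746 ± 62.3 CPM (SD, n = 3 each), a log2 fold change of -0.28 (standard error 0.09, edgeR adjusted p = 0.0318). This was the smallest fall among the called cyclins, and its call was lost when some libraries were left out. The adjusted p of CCND1 was 0.168 when control replicate 1 was left out, 0.0811 for control replicate 3, 0.12 for shikonin replicate 1 and 0.0515 for shikonin replicate 3, within a range of 0.00725 to 0.168 over all alternatives. An annotated neighbour on the opposite strand, LTO1, shares 10.4% of the CCND1 exon bases, and its log2 fold change was 0.24 (adjusted p = 0.171).

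CCND3, at chr6:41934934-42050357, stood at 50.4, 50.5 and 47.8 CPM without treatment and at 37.97, 37.3 and 32.1 CPM with shikonin. The control libraries were nearly level and all treated libraries lay well below them. The log2 fold change was -0.47 (standard error 0.09, adjusted p = 0.0018), a level 1.39 times lower. CCND3 kept its call under all 16 alternatives, with log2 fold changes from -0.57 to -0.37. CCND2 was represented by 2, 0 and 2.3 counts without treatment and by 1, 0 and 0 with shikonin. A library with 3 counts would have stood at 0.144 to 0.165 CPM, so that both groups were below what this depth can measure and no fold is given.

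The E-type cyclins differed from each other. CCNE1, at chr19:29811991-29824312, stood at 19.9, 20.7 and 18.5 CPM without treatment and at 22.7, 23.4 and 21.8 CPM with shikonin. The treated libraries were all higher, but by little, and the log2 fold change of 0.20 (95% interval -0.02 to 0.42) did not pass the test (adjusted p = 0.178). It did not pass under any of the 16 alternatives either, with adjusted p from 0.0715 to 0.6.

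CCNE2 had the largest fall of the tested cyclins and few counts. Its estimated counts were 53.9, 51.4 and 44.8 without treatment and 11.6, 25.5 and 22.1 with shikonin. The mean level was 2.54 ± 0.288 CPM in the control group and 1.03 ± 0.43 CPM in the treatment group (SD, n = 3 each). Even the highest treated library stood below the lowest control library. The log2 fold change was -1.30 (standard error 0.36, 95% interval -2.07 to -0.54, adjusted p = 0.018), a level 2.47 times lower. Only 0.295% of the tested genes had a lower log2 fold change. With 1 library left out, the adjusted p of CCNE2 was 0.0821 for control replicate 1, 0.0611 for control replicate 2 and 0.0775 for shikonin replicate 1, and it ranged from 0.00351 to 0.0821 over the alternatives. Without shikonin replicate 1, the library with the most mitochondrial counts, the log2 fold change was -1.01.

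The count of CCNE2 is uncertain for another reason. INTS8, a subunit gene of the Integrator complex, lies on the opposite strand and shares 37% of the annotated CCNE2 exon bases. Whether strand was used in counting is not stated, and without strand the reads of such a stretch cannot be told apart. INTS8 stood at 72.4 ± 3.6 CPM in the control group and 60.3 ± 4.35 CPM in the treatment group (SD, n = 3 each). Its log2 fold change was -0.27 (adjusted p = 0.0266), and that call was lost without control replicate 1 (adjusted p = 0.0791), control replicate 2 (0.129), shikonin replicate 1 (0.114) or shikonin replicate 2 (0.0832).

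CCNA2 and CCNF, the cyclins of S phase and G2, both fell. CCNA2, at chr4:121816444-121823883, stood at 31.5, 31.4 and 22.98 CPM without treatment and at 17.1, 22.0 and 18.2 CPM with shikonin. Control replicate 3 was the low control library, and shikonin replicate 2 came within 1 CPM of it without reaching it. CCNA2 decreased by 33.4% (log2 fold change -0.59, standard error 0.13, adjusted p = 0.00674). EXOSC9, an RNA exosome gene on the opposite strand, shares 9.24% of the CCNA2 exon bases, and its log2 fold change was -0.10 (adjusted p = 0.644).

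CCNF, at chr16:2429394-2458854, stood at 37.1, 35.8 and 30.5 CPM without treatment and at 22.3, 24.6 and 21.7 CPM with shikonin. The groups were clearly apart, although control replicate 3 was again the lowest of its group. CCNF had the smallest p of the cyclins, with a log2 fold change of -0.59 and a standard error of 0.10 (adjusted p = 0.00107). CCNA2 and CCNF kept their calls under all 16 alternatives, with adjusted p of at most 0.0449 and 0.0115.

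The B-type cyclins of mitosis, CCNB1 and CCNB2, showed no call. CCNB1, at chr5:69167135-69178245, stood at 35.9, 39.8 and 29.4 CPM without treatment and at 32.3, 31.6 and 31.5 CPM with shikonin. The treated libraries lay inside the range of the control libraries. The log2 fold change was -0.14 (95% interval -0.36 to 0.08, adjusted p = 0.365). CCNB2, at chr15:59105126-59125045, stood at 16.99, 17.3 and 13.2 CPM without treatment and at 13.1, 13.8 and 12.2 CPM with shikonin. Control replicate 3 lay among the treated libraries. The log2 fold change was -0.28 (95% interval -0.56 to -0.001), with an unadjusted p of 0.0492 and an adjusted p of 0.143. Neither gene passed under any of the 16 alternatives, in which the adjusted p was 0.0978 to 0.858 for CCNB1 and 0.0507 to 0.379 for CCNB2.

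The promoters of CCNA2, CCNF, CCNB1 and CCNB2 are shown because these genes belong to the late cell cycle group, whose promoters are known to pair CCAAT boxes, bound by the factor NF-Y, with cell cycle homology regions (CHR), bound by the DREAM complex in resting cells and by MuvB with MYBL2 or FOXM1 in cycling cells. The stretches end before the annotated gene start, so that they hold no transcribed base, and lie (RefSeq, GRCh38.p14) at chr4:121823884-121824008 on the minus strand for CCNA2 and, on the plus strand, chr16:2429322-2429393 for CCNF, chr5:69167025-69167134 for CCNB1 and chr15:59105021-59105125 for CCNB2. Capitals mark CCAAT on either strand and the CHR forms TTTGAA and CTTGAA on either strand.
CCNA2: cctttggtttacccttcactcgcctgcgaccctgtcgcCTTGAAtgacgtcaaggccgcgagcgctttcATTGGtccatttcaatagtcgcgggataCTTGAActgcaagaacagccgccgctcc
CCNF: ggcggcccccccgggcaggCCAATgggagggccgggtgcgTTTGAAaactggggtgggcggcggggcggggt
CCNB1: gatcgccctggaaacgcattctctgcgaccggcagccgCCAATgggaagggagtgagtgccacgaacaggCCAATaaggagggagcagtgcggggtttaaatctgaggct
CCNB2: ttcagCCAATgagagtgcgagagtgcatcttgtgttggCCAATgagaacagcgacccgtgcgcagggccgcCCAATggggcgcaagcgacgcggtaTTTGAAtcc

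RefSeq start windows were found for 7 of the 10 cyclins, and the 250 bases before each start were searched. CCND1, CCND2 and CCNE2 had no window and were not searched, although CCND1 and CCNE2 were among the cyclins that fell. CCNA2 held 1 CCAAT box and 2 CHR matches, CCNF held 4 and 1, CCNB2 held 4 and 1, and CCNB1 held 2 CCAAT boxes without either CHR form. The match nearest to the start began 28 bases before it in CCNA2, 85 bases in CCNF and 29 bases in CCNB2. In CCNE1 and CCNB3 neither motif was present in this window, and 2 of the 3 windows of CCND3 held 1 CCAAT box. The windows of CCNB3 and CCND3 lie inside these genes as annotated, past their GENCODE starts. Of 35116 windows in the RefSeq table, 32% held CCAAT, 20.9% held at least 1 of the CHR forms and 7.38% held both kinds. The cyclins with both kinds of match included 2 that fell, CCNA2 and CCNF, and 1 without a call, CCNB2. Only the CHR forms TTTGAA and CTTGAA were searched, in the cyclins and in all windows. A gene without them, such as CCNB1, may hold another form. A match is a string of letters and no measured binding.

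CCNB3, a B-type cyclin known mainly from meiosis, was the only cyclin that rose. It lies at chrX:50202713-50351914 and stood at 2.65, 3.39 and 3.28 CPM without treatment and at 4.32, 5.22 and 7.45 CPM with shikonin. All treated libraries were above all control libraries, and shikonin replicate 3 was well above the other two. CCNB3 was 1.82 times higher (log2 fold change 0.86, standard error 0.24, adjusted p = 0.018). Leaving out shikonin replicate 3 gave a log2 fold change of 0.64 and an adjusted p of 0.0685, and leaving out control replicate 1 gave 0.76 and 0.0786, in a range of 0.00217 to 0.0786 over the alternatives. The study had picked CCNB3 from these same libraries as a senescence gene, so its change is no independent evidence, and the paper gives it the opposite direction to the one that the labels give here.

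**Figure D2:**
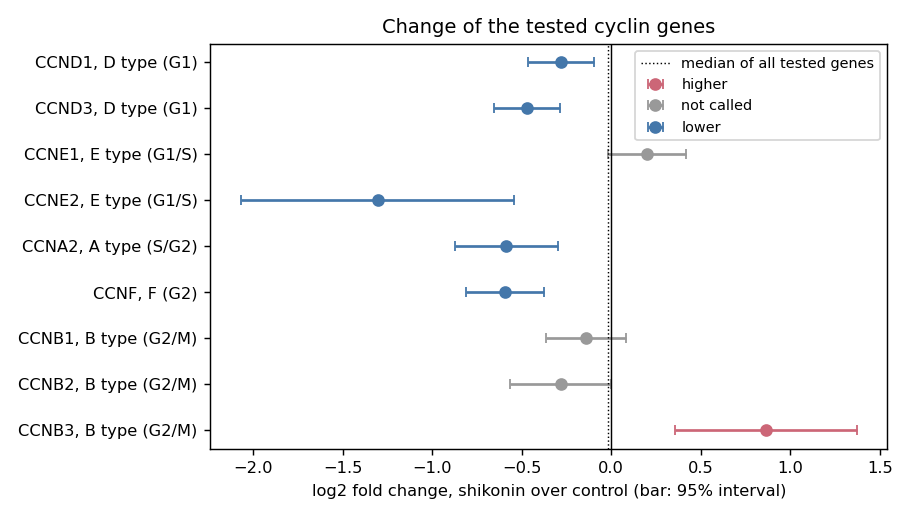
Log2 fold change of the 9 tested cyclins (points) with 95% intervals (bars), coloured by the edgeR call at an adjusted p under 0.05. The interval of CCNE2 runs from -2.07 to -0.54 and that of CCNB3 from 0.36 to 1.37, while those of CCNE1 and CCNB1 hold 0.

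Levels were also set side by side per length, as CPM per kilobase of merged exons. CCND1 led in both groups, at 190.3 ± 13.9 in the control group and 157 ± 13.1 in the treatment group (SD, n = 3 each). D-type cyclins together held 81.5% ± 2.49 of the summed level per kilobase of the 10 genes in the control group and 80.7% ± 0.617 in the treatment group. In the control group CCNB1 followed at 14.4, then CCNA2 at 10.4, CCND3 at 8.6, CCNE1 at 8.0, CCNB2 at 5.74, CCNF at 5.47, CCNE2 at 0.578 and CCNB3 at 0.574. The libraries overlapped between the neighbours CCNA2 and CCND3, CCND3 and CCNE1, CCNB2 and CCNF, and CCNE2 and CCNB3, so the order within these pairs is not set by these data.

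In the treatment group the order per kilobase was CCND1, CCNB1, CCNE1, CCNA2, CCND3, CCNB2, CCNF, CCNB3 and CCNE2, and only CCNA2 and CCND3 overlapped. CCNE1, at 9.19 per kilobase, stood above CCNA2 at 6.95 and CCND3 at 6.21. CCNB3, at 1.05 per kilobase, stood above CCNE2 at 0.235. The order depends on the length used: with the longest annotated transcript, CCND3 was at 20.7 per kilobase in the control group and ranked next to CCND1. CCNE1 then stood below CCND3 in the treatment group, at 11.6 against 14.95.

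**Figure D3:**
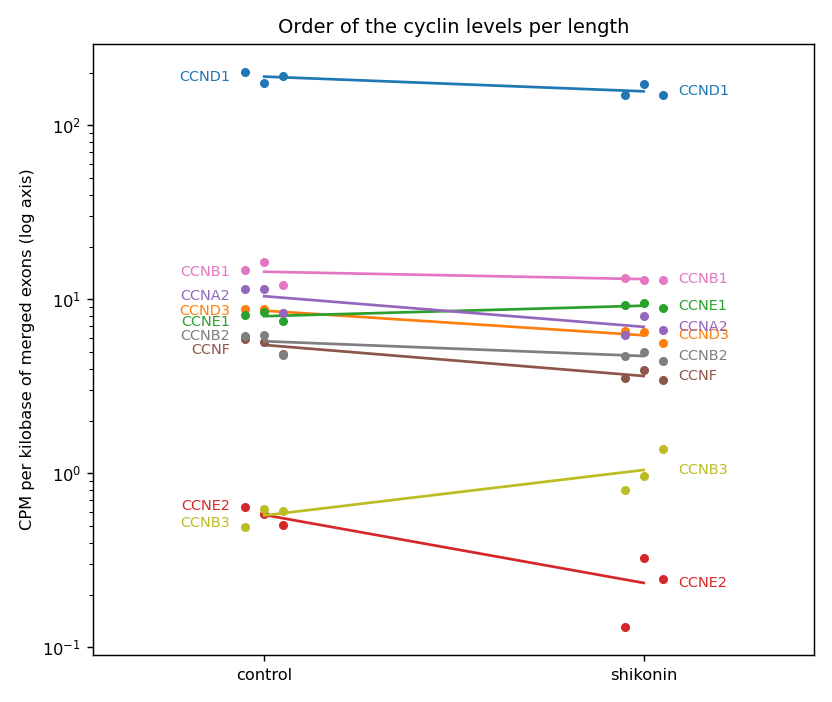
Level of 9 cyclins in CPM per kilobase of merged exons (log axis) in the control and shikonin groups; points are libraries and lines join the group means, and CCND2, below the measurable level, is left out. CCNE1 and CCNB3 move up in the order, and CCNE2 ends at 0.235, below all others drawn.

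Ratios of cyclins within a library need no scaling between libraries, and 5 were formed. The ratio of CCNE2 to CCNE1 counts was 0.141, 0.126 and 0.121 in the control libraries and 0.0245, 0.0601 and 0.0503 in the treated ones. All treated ratios were lower, by 3.07 times on average. The ratio of CCNB3 to CCNB1 was 0.0738, 0.0853 and 0.111 against 0.134, 0.165 and 0.237, which is higher in all treated libraries, by 1.96 times on average. The ratio of CCNA2 to CCNB1 was 0.878, 0.789 and 0.78 against 0.529, 0.696 and 0.579, lower in all treated libraries by 1.36 times. Each of these had an exact two-sided permutation p of 0.1, the smallest that 3 libraries against 3 allow, and an adjusted p of 0.167 over the 5 ratios.

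The other ratios overlapped between the groups. CCNB2 to CCNB1 was 0.386 to 0.435 in the treated libraries and 0.434 to 0.473 in the control libraries (exact permutation p = 0.2). CCND3 to CCND1 was 0.0454 to 0.0534 in the treated libraries and 0.0521 to 0.0605 in the control libraries (exact permutation p = 0.3). In the share of the E-type level per kilobase, CCNE2 went from 6.73% ± 0.517 to 2.48% ± 0.979 (SD, n = 3 each).

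**Figure D4:**
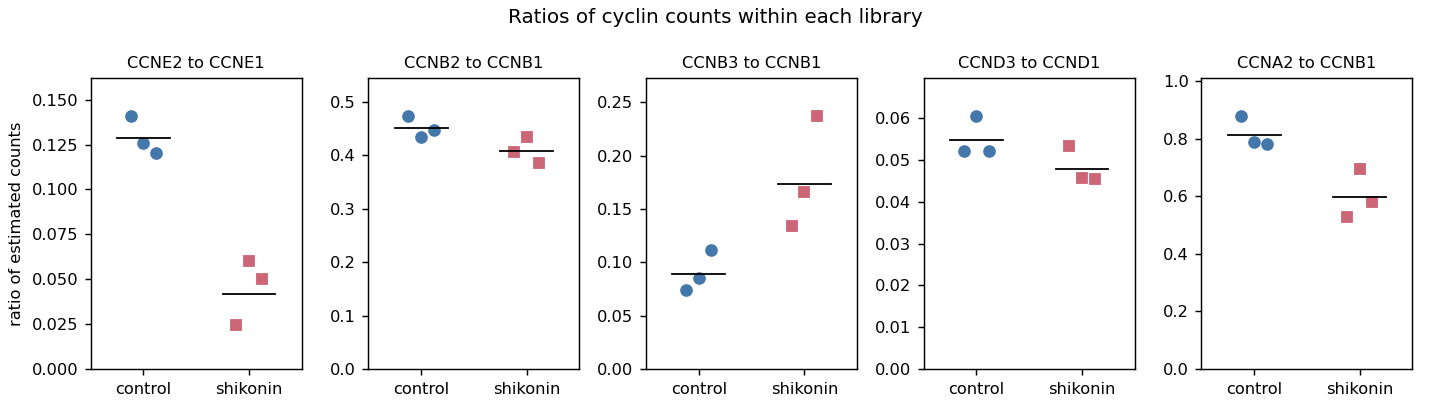
Ratio of the estimated counts of 5 cyclin pairs in each library (points) with the geometric mean of each group (line), on linear axes from 0. CCNE2 to CCNE1 and CCNA2 to CCNB1 are lower in all treated libraries, CCNB3 to CCNB1 is higher in all of them, and the other 2 ratios overlap.

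Among the kinases that the cyclins activate, CDK4 rose, and CDK1 and CDK2 did not pass the test. CDK4, a partner of D-type cyclins, stood at 122, 122 and 113 CPM without treatment and at 173, 183 and 151 CPM with shikonin. All treated libraries stood higher, and the log2 fold change of CDK4 was 0.51 (standard error 0.08, adjusted p = 0.000572). For CDK6, the other partner, the log2 fold change was -0.30 (adjusted p = 0.0298). The call of CDK6 was lost without control replicate 1 (adjusted p = 0.0925), control replicate 2 (0.121), shikonin replicate 1 (0.134) or shikonin replicate 2 (0.111), and when transcript length and GC content were fitted as an offset its log2 fold change was -0.14 (adjusted p = 0.135). CDK2, the partner of E-type cyclins and cyclin A2, had a log2 fold change of -0.05 (95% interval -0.20 to 0.11), and CDK1, the partner of B-type cyclins, of -0.18 (95% interval -0.55 to 0.18).

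Of 11 tested kinases and activators, 3 were higher (27.3%) and 1 was lower (9.09%), beside 10.8% and 11.1% of all tested genes. Besides CDK4 the higher ones were CKS1B, a CDK-binding subunit, with log2 fold change 0.44 (adjusted p = 0.00216), and CDC25B, a phosphatase that activates CDK1, at 0.40 (adjusted p = 0.00331). Of 9 inhibitors, 1 was higher and 1 was lower (11.1% each), which is near the shares of all tested genes. The INK4 locus gene CDKN2A was also picked by the study from these libraries, and its direction in the paper is again opposite to that from the labels. Besides sequencing, the paper reports lower CDKN2A by RT-qPCR after shikonin in HCT116 cells and a second colon cancer line. In these libraries CDKN2A stood at 30.5, 34.5 and 31.9 CPM without treatment and at 59.7, 58.1 and 55.3 CPM with shikonin. For its relative CDKN2D the log2 fold change was -0.52 (adjusted p = 0.0405), which was not called without control replicate 1 or control replicate 3 (adjusted p = 0.133 each), shikonin replicate 2 (0.15) or shikonin replicate 3 (0.117).

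Of 23 tested genes of RB, E2F and DREAM transcription, 3 were higher (13%) and 4 were lower (17.4%). Among all tested genes 10.8% were higher and 11.1% lower. The list had a median log2 fold change of -0.07. The mitotic transcription factor gene FOXM1 fell by 0.41 on the log2 scale (adjusted p = 0.0063) and the atypical E2F gene E2F7 fell by 0.48 (adjusted p = 0.0115). E2F5 and E2F6, whose products act mainly as repressors, had log2 fold changes of 0.47 (adjusted p = 0.0079) and 0.34 (adjusted p = 0.011). E2F7 was not called without control replicate 1 (adjusted p = 0.0639), nor E2F6 without control replicate 2 (0.0623) or shikonin replicate 1 (0.0633). Without control replicate 1 only 1 gene of this list was lower, and without control replicate 2 there were 2 lower and 1 higher. Without shikonin replicate 1 there was 1 higher.

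The median log2 fold change of 33 tested genes of cyclin ubiquitination and its control was -0.003. Of these, 1 was higher and 1 was lower (3.03% each, beside 10.8% higher and 11.1% lower of all tested genes). These were ANAPC1, a subunit gene of the anaphase-promoting complex, with log2 fold change 0.24 (adjusted p = 0.0193), and CUL4B, at -0.29 (adjusted p = 0.0309). Neither of these calls held without control replicate 1, 2 or 3 or without shikonin replicate 1 (adjusted p from 0.0537 to 0.108), and that of CUL4B was also lost without shikonin replicate 2 (adjusted p = 0.142). The log2 change of CUL4B was -0.15 with transcript length and GC content as an offset (adjusted p = 0.11), and that of ANAPC1 was 0.18 when libraries were scaled by their totals alone (adjusted p = 0.0706).

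Of 10 genes for substrates or partners of cyclin F, 3 were lower (30%, beside 11.1% of all tested genes) and none was higher. A log2 fold change below 0 was found for 9. The ligase acts on proteins, which were not measured. On the log2 scale RRM2, a subunit gene of ribonucleotide reductase, fell by 0.58 (adjusted p = 0.000572), the exonuclease gene EXO1 by 0.73 (adjusted p = 0.00711) and MYBL2 by 0.40 (adjusted p = 0.016). MYBL2 was not called without control replicate 1 (adjusted p = 0.105) or control replicate 2 (0.0603). Its fall is also counted in the list of RB, E2F and DREAM transcription, which shares E2F1, E2F2 and E2F3 with this list. SLBP is also in the list of G1/S and S phase. Of 17 other cyclin genes tested, including those of transcription such as CCNH, CCNT1 and CCNK, edgeR called none. Among all tested genes it called 10.8% higher and 11.1% lower. Of these 17 genes, 5 had an unadjusted p under 0.05, and the alternatives called at most 3 lower and 1 higher. Such values were common, as the unadjusted edgeR p of 0.0492 of CCNB2 ranked only at 4663 among all 13548 tested genes.

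Of 20 genes of G1/S and S phase, 5 were lower (25%, beside 11.1% of all tested genes) and none was higher. Their median log2 fold change was -0.18, beside -0.02 for all tested genes, and 18 were below 0. On the log2 scale the helicase gene MCM4 changed by -0.44 (adjusted p = 0.000802), the sliding clamp gene PCNA by -0.44 (adjusted p = 0.00129) and the checkpoint mediator gene CLSPN by -0.68 (adjusted p = 0.00135). All 19 tested G2/M genes had a log2 fold change below 0, at a median of -0.31. None was called higher, and 5 were lower (26.3%, beside 11.1% of all tested genes). They included the proliferation marker gene MKI67 at -0.65 (adjusted p = 0.00026), the cytokinesis gene ANLN at -0.53 (adjusted p = 0.0022) and the topoisomerase gene TOP2A at -0.45 (adjusted p = 0.007, and 0.052 without control replicate 2). The number of lower G1/S and S phase genes was 3 without control replicate 1 and 10 with transcript length and GC content as an offset. That of lower G2/M genes was 3 without control replicate 1 or shikonin replicate 1, 2 without control replicate 2 and 8 without control replicate 3. The part of these phase genes in the fall of CCNA2 and CCNF was not tested.

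**Figure D5:**
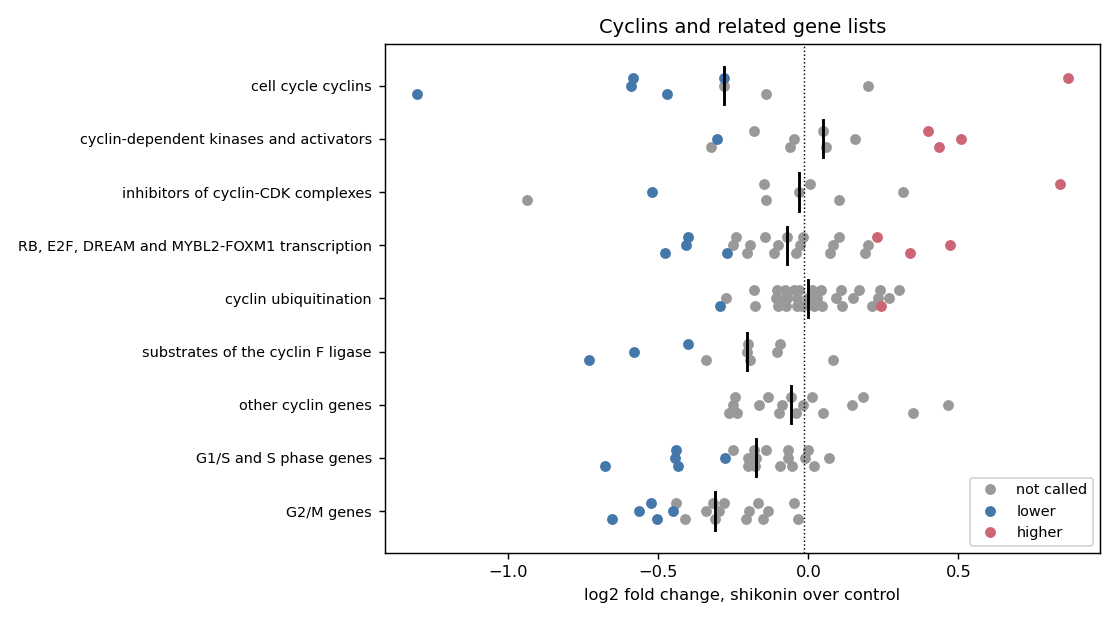
Log2 fold change of every tested gene (points) in the cyclins and in 8 related lists, coloured by the edgeR call; the short black lines are list medians and the dotted line is the median of all tested genes, -0.02. The cyclins spread from -1.30 to 0.86, and all 19 G2/M genes lie below 0.

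Among 11826 genes averaging 50 counts or more, the profile most like that of CCNF was sought by the root mean square difference of centred log2 CPM over the 6 libraries. The nearest were DISP2 at 0.0502, TAPBP, a gene of MHC class I loading, at 0.0509 and MKI67 at 0.0571. MKI67 stood at 105.1, 103.5 and 81.98 CPM without treatment and at 59.9, 63.5 and 61.3 CPM with shikonin. Its control replicate 3 was low as in CCNF, but MKI67 was picked for its likeness to CCNF in these same libraries.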

How the data were processed

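The paper states that paired-end reads were aligned to hg38 with TopHat2 and counted with featureCounts, without versions. The submitters' processing notes name mouse builds, whereas the gene identifiers are human. The values deposited by the authors are estimated counts without scaling, of which 46.5% to 63.3% of those above 0 were not whole. How fractions arose is not given in the sources used here. Counts were rounded, then in R 4.3.3 edgeR 4.0.16 kept genes by filterByExpr, applied TMM scaling and compared the groups by its quasi-likelihood test with no further terms. P-values were adjusted over 13548 genes (Benjamini-Hochberg), with a call at an adjusted p under 0.05. Standard errors are the log2 fold change over the root of F, and 95% intervals use the t distribution. Lengths and coordinates are from GENCODE release 44 (GRCh38).

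Other fits used DESeq2 1.42.0 or voom weights in limma 3.58.1, scaling by median of ratios or library totals alone, all genes, genes averaging 50 counts or more, counts left unrounded, a replicate block, or splines of transcript length and GC content (5 degrees of freedom) as an offset, and each library was left out in turn. Named are all 10 cyclins, up to 4 called genes of each list by p, the CDK partners, the nearest profiles and overlapping genes. INTS8, LTO1 and EXOSC9 were chosen after the data were seen, as was applying the alternatives to genes other than cyclins. The members and lists were chosen with earlier results of these data known. The edgeR procedure was also run on simulated counts with known fold changes, and the outcome is not given here. CCNP and KIF23 had no match by symbol and were not analysed here.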

Additional observations from a re-analysis of the deposited data

How the results depend on the processing

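No cyclin changed direction under any alternative run. CCND3, CCNA2 and CCNF kept their calls under all 16 alternatives. The number of lower cyclins was 5, and it was 3 to 5 when a library was left out. The number of higher cyclins was 1, and it was 0 to 1. Same-numbered libraries did not deviate together (correlations of 0.003, 0.013 and 0.037, beside -0.106 to 0.102 for differently numbered ones). With 3 libraries in each group, this cannot settle whether the number marks a pair. With a replicate block 4 cyclins were lower and 1 was higher in edgeR, where CCND1 missed the threshold (adjusted p = 0.0717, in a range of 0.00725 to 0.168). With the block, DESeq2 gave CCNE2 no adjusted p. Among the other genes named, the block in edgeR lost the calls of CDK6 (adjusted p = 0.0513) and INTS8 (0.0543). The block in DESeq2 lost those of CDK6 (adjusted p = 0.0991), INTS8 (0.109), CDKN2D (0.0965), E2F7 (0.0688), CUL4B (0.0611) and DISP2 (0.0934). A mean of at least 50 counts left CCNE2 out. EXOSC9, which was not called, had log2 fold changes from -0.24 to 0.026 when a library was left out, the highest without control replicate 1 (adjusted p = 0.935). The ratios of cyclins kept their direction when each library was left out. With library totals as the only scaling, the median log2 fold change of all tested genes was -0.08, and 1033 genes were higher and 2150 lower, against 1460 and 1504 with TMM scaling, while the same numbers of cyclins were called. The replicate block in DESeq2 called 1033 higher and 781 lower, and leaving out a library gave 861 to 2074 higher and 776 to 1901 lower. The G2/M list had 8 lower genes without the filter on low counts and 3 with the DESeq2 block, which also gave 3 for G1/S and S phase. Depth limits what can be said of CCND2, CCNE2 and CCNB3.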
